A study of Mus musculus with 2 samples.

Results

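The NF-κB core pathway was followed through 10 genes in primary mouse chondrocytes, at a time before mechanical loading and 24 h later: the subunit genes Rela, Nfkb1, Relb and Nfkb2, the inhibitor genes Nfkbia, Nfkbib and Nfkbie, and the IκB kinase genes Chuk, Ikbkb and Ikbkg. They were found among the probes of the array by the accession that names each probe: a probe belongs to a member when its accession, without the version, is a RefSeq transcript of that gene. This gave 15 probes in 16 spots for the 10 genes, out of 20660 genes named on the array in the same way. The brightest probe stands for a gene with several.

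Chondrocytes of 6-day-old C57BL/6J mice were grown in fibronectin-coated silicon chambers for 48 h and then stretched by 10% of their length at 0.5 Hz for 30 min. RNA taken before the stretch and RNA taken 24 h after it were labelled with Cy3 and hybridised to 1 array each of the same slide, so that there are 2 arrays, 1 per time point. How many animals gave the cells, and whether cells were pooled, is not given in the sources used here. There is no unloaded array at 24 h, so the loading and a further 24 h of culture cannot be told apart, and with 1 array per time point no difference has a replicate check, a test or a p-value.

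NF-κB proteins are dimeric transcription factors that IκB inhibitors hold in the cytoplasm of resting cells. Inflammatory signals activate the IKK complex, which marks the IκB proteins for degradation and lets the dimers enter the nucleus, where they also switch on the genes of several of their own inhibitors and subunits. In cartilage the pathway is known for driving matrix-degrading enzymes and inflammatory mediators. It acts mainly through protein modification and location, which a measurement of RNA does not see.

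All 10 genes were detected, which means that every spot of the probe was called well above background on both arrays. The quantity compared is the intensity of a spot in arbitrary units as the scanner software processed it, and the log2 ratio is the value at 24 h minus the value before loading after each array was scaled to its 75th percentile of intensity. That percentile was 466 on both arrays. The error given in brackets combines the software's error of the spot on both arrays. It covers error within an array only and was 0.20 for the median detected gene. For the brightest probes of the members it ran only from 0.20 to 0.22, so it acts almost as a fixed limit. Measured between spots of the same probe, the log2 ratio had a median SD of 0.11 over 380 probes with at least 8 spots.

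None of the 10 genes differed by 2-fold between the time points, against a background of 2.50% of the 14222 detected genes, 0.668% higher and 1.83% lower. Ikbkg, Nfkb2 and Nfkbie were lower at 24 h by more than their within-array error, and Ikbkg alone by more than 2 such errors, a call it lost under 3 of 11 other settings. No member was higher by more than 1 error. Among all detected genes 42.8% were past 1 error, 22.7% lower and 20.1% higher, beside 3 lower and 0 higher of the 10 members. Past 2 errors were 16.4% of all detected genes, 9.12% lower and 7.24% higher, beside 1 lower and 0 higher of the members. Of the members 4 were higher and 6 were lower by any amount, where 47.6% and 52.4% of all detected genes were. The members' median log2 ratio was -0.10 with a range from -0.48 to 0.15, and the median over all detected genes was -0.01.

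**Figure D1:**
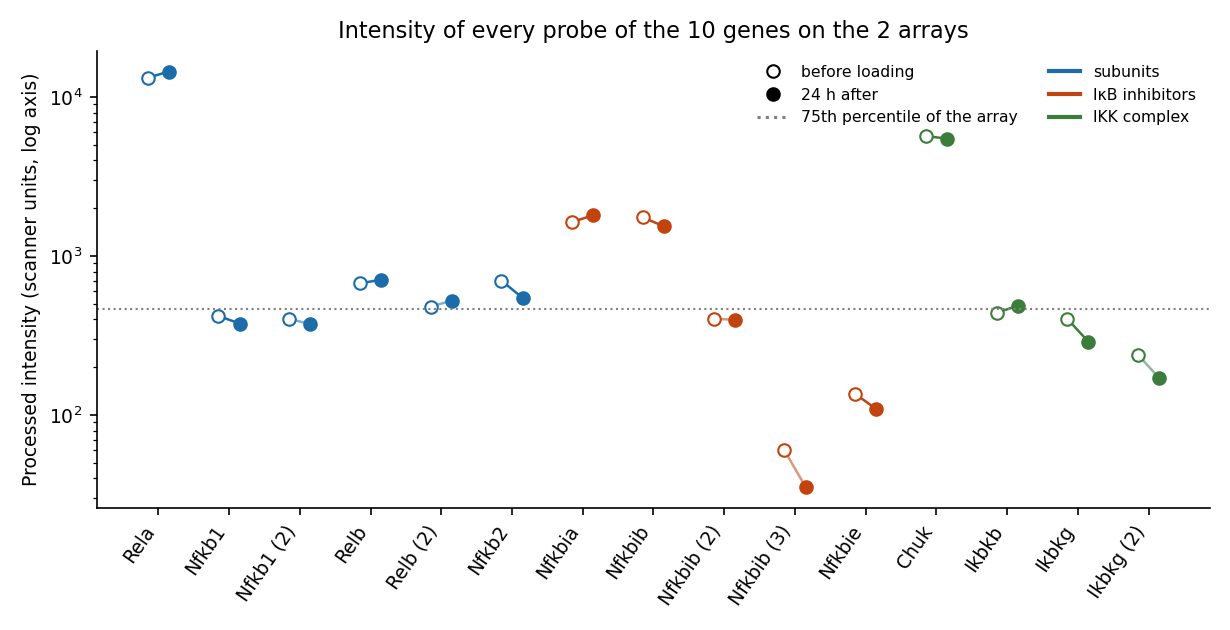
Intensity of every probe of the 10 genes before loading and 24 h after it, on a log axis in arbitrary units, with 1 array per time point. Lines join the values of a probe. The steepest line is that of the dim Nfkbib probe, from 60.3 to 35.4 with a log2 ratio of -0.77, and the other lines run more nearly level. Among the brightest probes of the genes the lowest ratio is that of Ikbkg, from 404 to 289. No gene differs by 2-fold.

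Among the genes of the set, Nfkbia, Nfkbie and Nfkb2 are textbook targets of NF-κB itself, and their promoters are shown because they hold the letters of the κB consensus, the sequence that NF-κB dimers recognise. RefSeq promoters of mouse build GRCm38.p6 were given for 7 of the 10 genes, 12 promoters in all, and the 250 bases before each start site were searched on both strands. Nfkb1, Relb and Ikbkb had no entry. Of the 27025 genes with promoters, 4.46% held a match, and so did 3 of the 7 members. The windows are written 5′ to 3′ on the strand of the gene, with the matches in capitals. The Nfkbia window is chr12:55492648-55492696 on the minus strand, the Nfkbie window is chr17:45555574-45555623 on the plus strand and the Nfkb2 window is chr19:46304678-46304736 on the plus strand.
Nfkbia: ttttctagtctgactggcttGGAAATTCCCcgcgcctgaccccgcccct
Nfkbie: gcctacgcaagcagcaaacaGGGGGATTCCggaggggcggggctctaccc
Nfkb2: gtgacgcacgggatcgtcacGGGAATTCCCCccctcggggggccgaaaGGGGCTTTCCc
The match in Nfkbia begins 29 bases before the start site and that in Nfkbie 106 bases before it. The Nfkb2 window holds 3 matches, at 39, 38 and 11 bases before the start site, of which the first 2 overlap, and other promoters of Nfkb2 held further matches that are not shown. A match is a run of letters in the reference and says nothing about binding in these cells. The 3 genes with matches did not share a direction: Nfkbia had a log2 ratio of 0.15, Nfkbie of -0.32 and Nfkb2 of -0.36.

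The subunits came in pairs of opposite sign. Rela encodes p65, the transactivating partner of the classical dimer. Its probe (NM_009045) read 13251 before loading and 14495 at 24 h, a log2 ratio of 0.13 (error 0.20). Relb encodes the transactivating partner of the non-canonical dimer. Its brighter probe (NM_009046) read 675 and 711, a log2 ratio of 0.08, and its other probe 482 and 525, a log2 ratio of 0.12. Both genes were therefore slightly brighter at 24 h, by less than the error of the spots.

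Nfkb1 encodes p105, the precursor of p50, which pairs with p65. Its brighter probe (NM_008689) was printed in 2 spots, which read 413 and 368 in the first and 428 and 387 in the second, before loading and at 24 h. The log2 ratios of the spots were -0.17 and -0.15, and that of the second probe was -0.11, from 404 to 374. All spots of Nfkb1 were thus lower at 24 h, each by less than its error.

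Nfkb2 encodes p100, the precursor of p52, which pairs with RelB and also holds RelB dimers in the cytoplasm. Its only probe (NM_019408) read 702 before loading and 546 at 24 h, which is 77.8% of the earlier value and a log2 ratio of -0.36 (error 0.20). Of all detected genes 12.6% had a ratio as low or lower. Of 16 detected spots within 100 µm of the Nfkb2 spot, 2 were lower by more than 2-fold and their median log2 ratio was -0.12. After subtraction of that median, a step chosen after seeing the data, the ratio of Nfkb2 was -0.24, still larger than its error. Errors are unchanged by this step and leave out that of the neighbours' median. The part of the position in the ratio was not tested further.

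Nfkbia encodes IκBα, the inhibitor that turns over fastest after a signal and is itself induced by NF-κB. Its probe (NM_010907) read 1637 before loading and 1813 at 24 h, a log2 ratio of 0.15 (error 0.20), and 26.7% of detected genes had a ratio as high or higher. The 11 detected spots within 100 µm of it had a median of -0.19. Centred on those neighbours the ratio was 0.34, larger than its error, which again leaves out that of the median.

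Nfkbie encodes IκBε, a slower inhibitor that acts mainly on p65 and c-Rel dimers. It was the dimmest member, with 136 before loading and 109 at 24 h (NM_008690), a log2 ratio of -0.32 (error 0.22). Of all detected genes 14.8% were as low or lower. The 8 detected spots around it had a median of 0.18. Centred on them the ratio was -0.50, more than 2 errors, though the error leaves out that of the median of these few spots. With normexp background correction, which shrinks the ratios of dim spots, it was -0.18 and inside its error.

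Nfkbib encodes IκBβ, an inhibitor that is degraded more slowly than IκBα. Its brightest probe (NM_010908) read 1754 and 1538, a log2 ratio of -0.19 (error 0.20), and its second probe 404 and 398, a ratio of -0.02. The third probe was dim, at 60.3 before loading and 35.4 at 24 h, with a ratio of -0.77 (error 0.30). The 3 probes thus gave the same sign and sizes that lay 0.75 apart, a wider range than in 94.2% of the 3635 genes with several detected probes, whose median range was 0.19. Whether Nfkbib was lower at 24 h by more than the error depends on the probe, since only the dim probe was past its error. The mean over the 3 probes, which includes that probe, was -0.33 and past its error of 0.24.

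Chuk encodes IKKα, the kinase that drives p100 processing in the non-canonical arm. Its probe (NM_007700) read 5684 and 5494, a log2 ratio of -0.05 (error 0.20), the value nearest to 0 in the set. Ikbkb encodes IKKβ, the kinase that phosphorylates the IκB proteins in the canonical arm, and its probe (NM_010546) read 441 and 487, a ratio of 0.15 (error 0.20). Both kinase genes stayed inside the error of their spots.

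Ikbkg encodes NEMO, the regulatory subunit that couples the kinases to ubiquitin chains and without which the canonical arm does not signal. It had the lowest ratio of the 10 genes. Its brighter probe (NM_001136067) read 404 before loading and 289 at 24 h, which is 71.6% of the earlier value, 1.40-fold lower, and a log2 ratio of -0.48 (error 0.21). Its other probe (NM_010547) read 240 and 171, a ratio of -0.49, so that the probes lay 0.008 apart. In 3.05% of the genes with several detected probes the range was as small.

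Both Ikbkg probes were lower by more than 2 errors, and this held on every probe in 3.11% of the 3635 genes with several detected probes. Neither probe was past 2 errors when the arrays were scaled to their medians (-0.38 and -0.39) or to the spike-in controls (-0.39 and -0.40), nor with normexp (-0.37 and -0.33), while both stayed lower by more than 1 error. Of all detected genes 8.09% had a ratio as low as that of Ikbkg. Around its spots no detected neighbour within 100 µm differed by 2-fold, and the medians of the 21 and 17 neighbours were -0.03 and -0.04. Both probes were hybridised with the same RNA, so they repeat the measurement and not the culture.

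**Figure D2:**
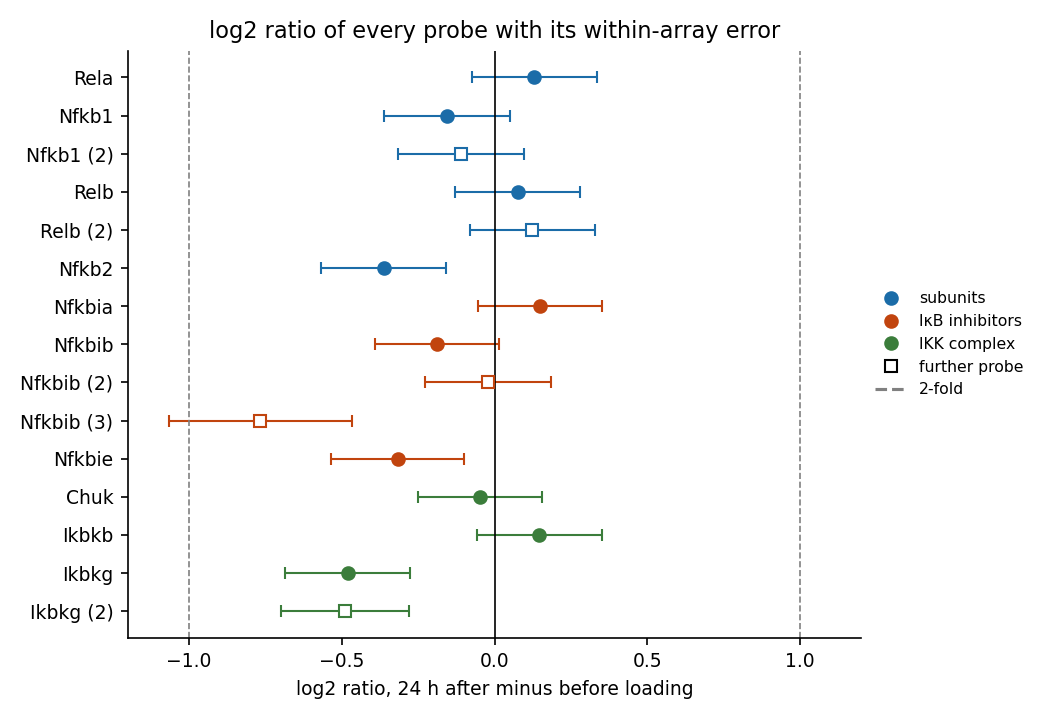
Log2 ratio, 24 h after minus before loading, of every probe of the 10 genes, with the within-array error as the bar. The Ikbkg probes lie at nearly the same ratio near -0.48, the Nfkbib probes spread from -0.77 to -0.02, and the remaining genes lie between -0.36 and 0.15.

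Within the set, differences between ratios do not depend on which constant scales the arrays against each other. The 45 pairs of members reuse the same 10 ratios, and the share of such pairs over all detected genes was not computed. Of these pairs 21 differed by more than their combined error and 3 by more than 2 combined errors. All 3 were pairs with Ikbkg: it lay 0.61 below Rela, 0.63 below Nfkbia and 0.63 below Ikbkb on the log2 scale, with a combined error of 0.29. With normexp these differences were 0.52, 0.56 and 0.51 in size and 0 pairs passed 2 combined errors. Centred on the neighbouring spots with the errors unchanged, 9 pairs did, 4 of them with Ikbkg, and Nfkbie then lay 0.84 below Nfkbia. Inside the IKK complex Ikbkg also lay 0.43 below Chuk. Among the subunits Nfkb2 lay 0.49 below Rela and 0.44 below Relb, and among the inhibitors Nfkbie lay 0.47 and Nfkbib 0.34 below Nfkbia. In each of the 3 roles 1 member was lower past its error, where 22.7% of all detected genes were. Each role also held at least 1 member of positive ratio, always inside its error, where 47.6% of all detected genes were higher.

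Sorted by arm, the 7 genes of the canonical arm had a median log2 ratio of -0.16, with 2 of them past 1 error. The 3 genes of the non-canonical arm (Relb, Nfkb2 and Chuk) had a median of -0.05, with 1 past 1 error. Among all detected genes 42.8% were past 1 error, 47.6% were higher by any amount and 52.4% lower. The 5 members that are themselves textbook NF-κB targets (Nfkbia, Nfkbie, Nfkb1, Nfkb2 and Relb) had a median of -0.16, 2 higher and 3 lower, and the other 5 had a median of -0.05. Neither split separated the ratios, since each side held genes of both signs.

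**Figure D3:**
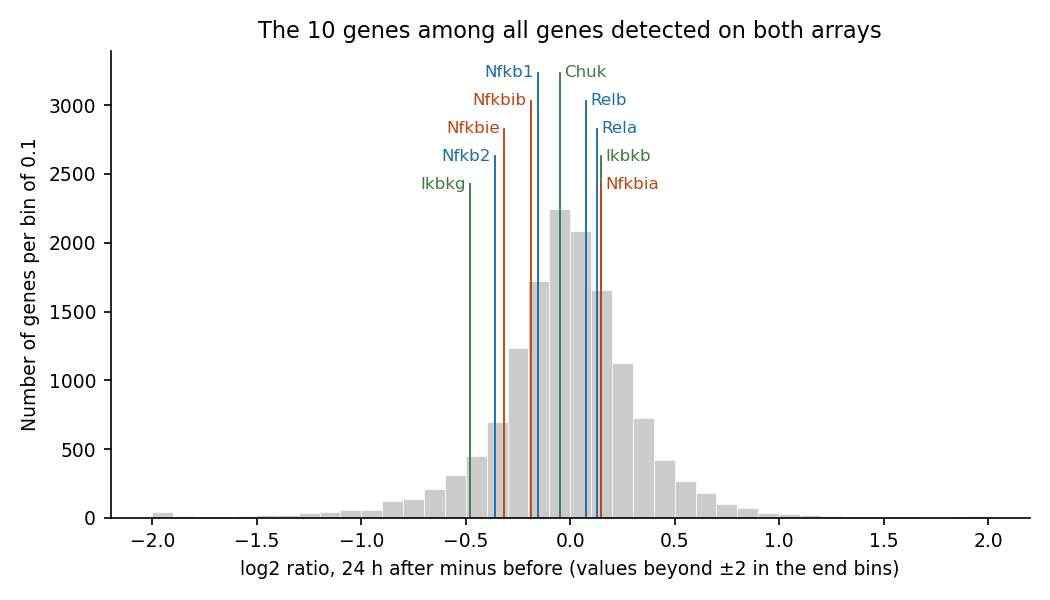
Histogram of the log2 ratios, 24 h after minus before loading, of the 14222 detected genes, with a vertical line and a name for each of the 10 members. All members lie between -0.48 and 0.15, within 2-fold, around a median of -0.10 beside -0.01 for all genes.

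The ratios of the members were recomputed under 11 other settings of scaling, background, probe choice and spot position. No member passed 2-fold under any of them, and Chuk alone turned its sign, under 3 settings, with 0.05 when the arrays were scaled to their medians. Ikbkg lay between -0.51 and -0.37 throughout and Nfkb2 between -0.37 and -0.24. Scaling to the medians added 0.10 to every ratio, so that the median of all detected genes became 0.08, and scaling to the spike-in controls added 0.09. With either scaling Rela, Nfkbia and Ikbkb were higher by more than their error, at 0.23, 0.25 and 0.24 for the medians, and the members' 0 higher and 3 lower past 1 error became 3 and 3. They became 0 and 2 with normexp, where Nfkbie lost its call, 0 and 4 with the mean over probes, where Nfkbib gained one, and 1 and 3 with centring on the neighbours within 100 µm, where Nfkbia gained one. Past 2 errors, Ikbkg lost its call under both scalings and normexp, and Nfkbie gained one with centring on those neighbours. Over all detected genes the 2860 higher and 3230 lower past 1 error became 4396 and 2092 with the medians, and 4225 and 2167 with the spike-in controls. They became 2462 and 2406 with normexp, 2751 and 3148 with the mean over probes, and 3410 and 3039 with centring on neighbours within 100 µm. Past 2-fold, the 95 genes higher and 260 lower became 130 and 205 with the medians, and 123 and 209 with the spike-in controls.

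**Figure D4:**
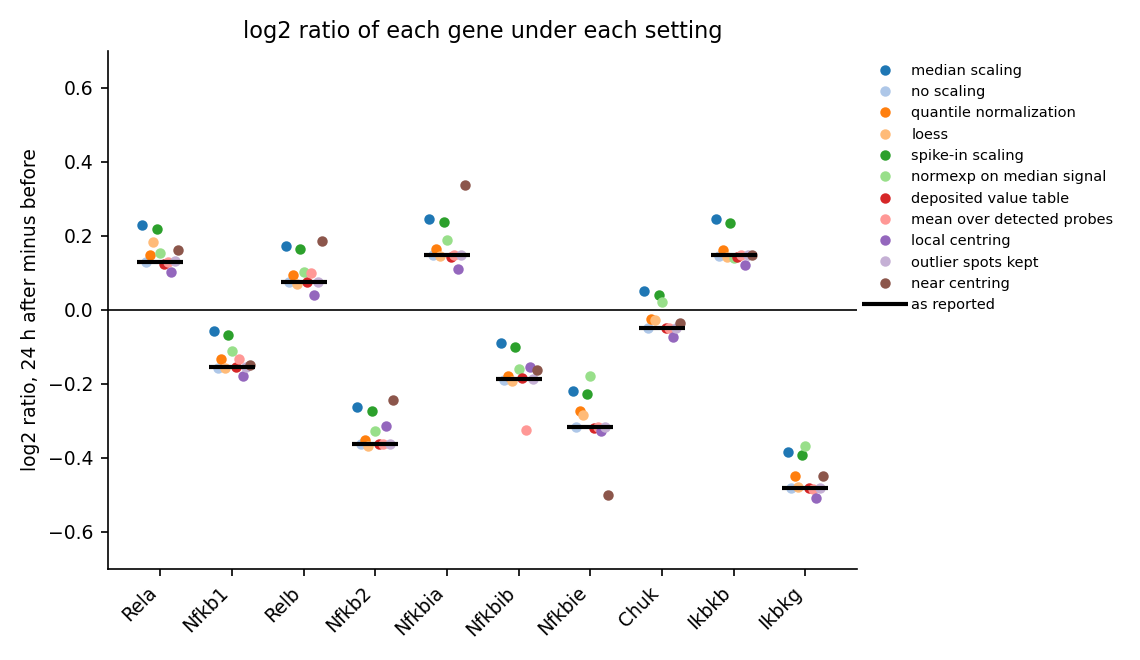
Log2 ratio, 24 h after minus before loading, of each of the 10 genes under the main setting and under 11 other settings. Chuk alone crosses 0, Nfkbie spreads from -0.50 to -0.18, and no value reaches 2-fold.

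The other genes of the pathway were counted from 4 lists that do not contain the members. Of their 68 genes 59 were detected, 29 with higher and 30 with lower ratios, 10 and 13 of them past 1 error, with a median of -0.01. Among all detected genes 20.1% were higher and 22.7% lower past 1 error. Among the remaining subunit and IκB genes, Nfkbid, which encodes the nuclear inhibitor IκBNS, was higher past its error, from 68.6 to 83.9 with a log2 ratio of 0.29, and 4 of the 5 genes were detected with a median of 0.04. Rel, which encodes c-Rel, the subunit typical of lymphoid cells, reached the detection limit on neither array.

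The genes listed as upstream kinases and adaptors were all detected, 17 of 17, with a median of 0.05. Past 1 error 3 were higher and 2 lower, beside 20.1% and 22.7% of all detected genes. Map3k8, which encodes the kinase TPL2 that p105 holds in check, passed 2-fold from 22.4 to 47.9, a log2 ratio of 1.1 (error 0.36). That spot is dim, near the lowest intensities that the software still called above background, 17.3 and 17.8 on the earlier and the later array, and with normexp its ratio was 0.30. Map3k14, which encodes NIK, the kinase of the non-canonical arm, read 305 and 317, a ratio of 0.05. Its second probe, chosen after its values were seen, read 72.7 and 179, a ratio of 1.30. Of the 12 listed genes with several detected probes, 2 had a further probe past 2 errors where the brightest was not, Map3k14 and Csf1. Csf1, a target gene that encodes a macrophage growth factor, was higher by 0.13 on its brightest probe and had -0.62 and -0.61 on its other probes, and the mean over its probes was -0.37.

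The ubiquitin enzymes and negative regulators were also all detected, 17 of 17, with a median of -0.02. Past 1 error 2 were higher and 2 lower, beside 20.1% and 22.7% of all detected genes. Btrc, which encodes the β-TrCP protein that directs phosphorylated IκB to degradation, passed 2-fold from 169 to 383, a log2 ratio of 1.18 (error 0.21). Its second probe read 84.4 and 97.2, a ratio of 0.20, so the size again depended on the probe. With normexp the ratio of Btrc was 0.98 and with the mean over its probes 0.69, so it did not pass 2-fold under either setting. Tnfaip3, which encodes the feedback inhibitor A20, had a ratio of -0.01.

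Target genes of NF-κB outside the set had a wider range of ratios than the fewer members, with no common direction. Over all detected genes the range was from -2.74 to 2.54. Of 33 genes 25 were detected, 12 higher and 13 lower, with a median of -0.01. Past 1 error 5 were higher and 9 lower, past 2 errors 4 and 5, and none passed 2-fold. Among all detected genes 20.1% were higher and 22.7% lower past 1 error, and 7.24% and 9.12% past 2 errors. Past 2-fold were 2.50% of them. Higher by more than 2 errors were Cxcl5, a neutrophil chemokine, from 88.7 to 162 with a log2 ratio of 0.86, Icam1 and Vcam1, which encode adhesion molecules, with 0.52 and 0.44, and Mmp13, the main collagenase of cartilage, from 617 to 867 with 0.49. Lower by more than 2 errors were Saa3, an acute-phase protein, from 395 to 213 with -0.89, Ptgs2, which encodes cyclooxygenase 2, from 145 to 79.5 with -0.87, and the chemokine Cxcl10 from 130 to 74.7 with -0.80. Gadd45b, a stress-response gene, with -0.48, and the chemokine Ccl7, with -0.45, were lower as well. With normexp Icam1, Vcam1 and Ccl7 were no longer past 2 errors, at 0.30, 0.31 and -0.31, and Ptgs2 had -0.51. Scaled to the medians or the spike-in controls, Gadd45b and Ccl7 were not past 2 errors, and Vcam1 or Ccl7 lost the call under some further settings. On neither array were Il6, Il1b, Tnf, Ccl20, Cxcl2, Mmp9 and Csf2 detected, and Plau was detected on 1.

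**Figure D5:**
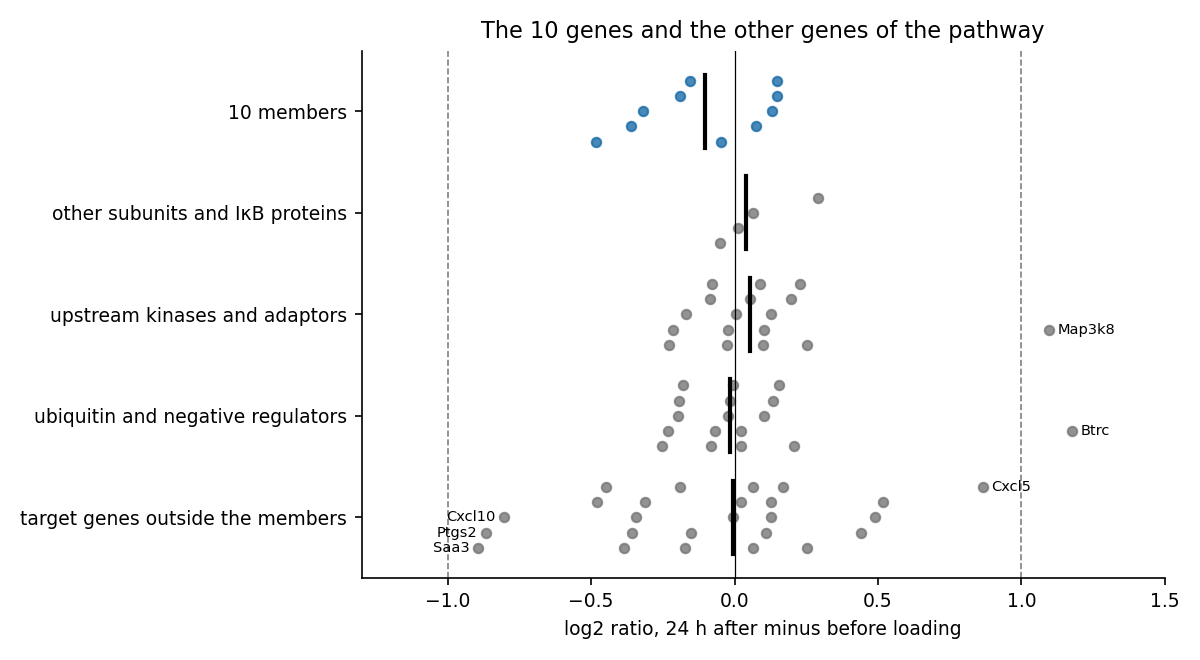
Log2 ratio, 24 h after minus before loading, of the 10 members and of the detected genes of the 4 other pathway lists, each point a gene, bars the list medians and dashed lines 2-fold. The 10 members span -0.48 to 0.15, and the 25 detected target genes outside the set span -0.89 to 0.86 around a median of -0.01.

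The cell label was checked against markers. All 9 chondrocyte markers were detected, with ratios from -0.82 for Col11a1 to 0.40 for Hapln1, and so were all 5 fibroblast markers. Of the 7 macrophage markers 6 were on the array and detected, with ratios of both signs. Csf1r read 3646 and 3288, a ratio of -0.15, and had 0.20 and 0.27 on its other probes. Lyz2 had 0.46, Cd14 0.21 and Adgre1 0.09, with -0.08 on the other Adgre1 probe. The dim C1qa went from 47.5 to 35.4 with -0.42, and the dim Ptprc from 20.9 to 46.1 with 1.14. Of the 4 lymphocyte markers Cd3e alone was detected on both arrays, with 0.15. Endothelial markers were detected on both arrays for 2 of 4 genes, skeletal muscle for 2 of 3 and erythroid for 1 of 3. Of the 3 osteoblast markers 2 were on the array and detected. These were lower at 24 h, with ratios of -2.06 for Ibsp and -0.64 for Sp7. The part of other cells in the NF-κB ratios was not tested. In RNA of a whole culture, fewer cells of a type and less RNA per cell cannot be told apart.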

How the data were processed

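Chondrocyte RNA of 2 time points, before the strain and 24 h later, was hybridised in 1 colour to 1 array each. The deposited intensity of each spot was made by the authors with Agilent Feature Extraction 10.10.1.1 (named in the submitters' processing notes), with background subtracted and no scaling between arrays. A deposited value table holds the same intensities rounded, at most 0.497% apart. The files hold no gene names and no probe sequences, so 27235 of 55678 probes were named by accession with RefSeq names of assembly GRCm38, whose coordinates were not used.

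Control spots and 255 spots marked as outliers were left out, spots of a probe were averaged, and log2 intensities were scaled to each array's 75th percentile. On the arrays 59.1% and 57.7% of 59305 spots were well above background and 0 were saturated. The error of a ratio combines the software's spot error of both arrays and is not divided by the number of spots. With 1 array per time point no test was made: precision is limited by the number of arrays. Limits used were 2-fold and 1 or 2 errors.

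Alternatives were scaling by the median, by spike-in controls or not at all, quantile and loess normalization, normexp (offset 50) on the median signal, the value table, the mean over probes, centring on spots within 500 µm or, chosen after seeing the data, 100 µm, and outliers kept; counts were also made with looser detection. The members and lists were chosen with earlier results of these data known. Named are the members, and listed genes past 2-fold, past 2 errors or not detected; Nfkbid, Map3k14, Csf1, Tnfaip3 and the markers given were named in addition. The calculation was tested on simulated data. Software was Python 3.11.15, numpy 2.4.6, pandas 2.3.3, R 4.3.3 and limma 3.58.1.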

Additional observations from a re-analysis of the deposited data

How the results depend on the processing

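No paired analysis was possible because each time point has a single array, and no array could be left out. The member ratios moved by less than their within-array error under each of the 11 other settings. The difference between Nfkbia and Nfkbie was 0.47 and became 0.84 when each spot was centred on its neighbours within 100 µm, a step chosen after seeing the data. Counts over all genes moved more. Past 1 error, 2860 higher and 3230 lower genes became 4396 and 2092 with scaling to the medians. Past 2-fold, 95 higher and 260 lower genes became 38 and 118 with normexp, 192 and 507 when detection on at least 1 array was enough, and 492 and 983 with no filter on dim probes. Normexp on the mean signal was not run because the files hold the median signal. The 2-fold counts thus depend on dim probes, and none of the 10 members passed 2-fold under any setting.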
